A study of Mus musculus with 24 samples.

Results

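Cell cycle and DNA replication genes were followed across liver endothelium, cultured endothelium, mouse amniotic cells (MACs) and endothelial-like cells converted from them. The list of 46 genes was given by name, with earlier results of these data known and with no threshold on expression, out of 22282 genes in the deposited tables. All 46 genes were found, and all 46 had a mean level of at least 1 FPKM (sequenced fragments scaled by library size and by transcript length) over 24 libraries. By role, 16 genes act at the G1/S transition or in replication (G1/S genes) and 30 act from late S phase to cytokinesis (G2/M genes).

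There were 8 groups of 3 libraries, all of strain C57BL/6J. LSECs were liver endothelial cells sorted straight from the organ by FACS after labelling of perfused vessels, without culture. Akt-liver ECs and Akt-LECs were endothelial cells (ECs) of liver and lung that were isolated with CD31 beads, transduced with lentivirus for a constitutively active myristoylated Akt and kept in culture. MACs were cultured amniotic fluid cells of E11.5 to E13.5 embryos, with the embryos of a litter pooled, and Akt-MACs also carried the Akt vector. RACVECs were MACs transduced with mouse Etv2, Erg and Fli1 and grown in endothelial medium with an inhibitor of TGF-β signalling. Akt-RACVECs carried Akt in addition, and Sox17-RACVECs carried mouse Sox17 under puromycin selection. Both groups of cultured ECs carried Akt and MACs and RACVECs did not, so that cell type and Akt cannot be told apart where these were compared. The authors grew amniotic cells in AmnioMAX medium before conversion, and cells in conversion and cultured ECs in endothelial medium. The medium of the MACs taken for RNA was not stated. Where MACs were compared with RACVECs or cultured ECs, medium therefore cannot be told apart from cell type or the added factors. The labels number the libraries of a group without naming the animals or cultures of every group, so that p-values measure the spread between these libraries.

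Cells enter a new cycle when cyclin E and its kinase release E2F factors from the retinoblastoma proteins, and E2F then switches on the replicative helicase, the fork proteins and the enzymes of nucleotide supply. Later, FoxM1 and B-Myb, bound with the MuvB complex, switch on cyclin B, the mitotic kinases and the spindle proteins through the cell cycle genes homology region (CHR), often next to CCAAT boxes bound by NF-Y. Endothelium of adult organs divides rarely, whereas cultured endothelium divides to fill the dish. RNA of a tissue sample does not separate the number of dividing cells from the RNA per dividing cell, and these cannot be told apart in what follows.

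These binding sites were looked for in promoters of the RefSeq table for GRCm38.p6, which held 38 of the 46 genes, each as the 250 bases before and the 50 bases after a transcription start. E2F sites were searched as TTTGGCGC, TTTCGCGC, TTTCCCGC or TTTGCCGC, CHR sites as TTTGAA or TTCGAA and NF-Y sites as CCAAT, all on both strands, and none of these strings holds another. A CHR match was found in 18 of the 25 G2/M genes of the table and in 3 of the 13 G1/S genes, against 21.7% of all 27025 genes of the table. CCAAT was found in 29 of the 38 genes, against 41.1% of all genes, and both CHR and CCAAT were found in 20 of the 38, against 8.61%. An E2F match was found in 5 of the 13 G1/S genes (Mcm3, Mcm5, Mcm6, Mcm7 and Cdc6) and in 1 of the 25 G2/M genes (Cdk1), against 2.6% of all genes. A match is a description of letters and not a site shown to be bound. Shown 5′ to 3′ are the promoters of 3 G2/M genes that were among the most raised in Akt-liver ECs against LSECs. Their CHR and CCAAT matches are in capitals. Ube2c encodes the E2 enzyme of the anaphase promoting complex, Cdc20 its activator and Top2a the topoisomerase that untangles sister chromatids.
Ube2c (chr2:164769679-164769928, plus strand): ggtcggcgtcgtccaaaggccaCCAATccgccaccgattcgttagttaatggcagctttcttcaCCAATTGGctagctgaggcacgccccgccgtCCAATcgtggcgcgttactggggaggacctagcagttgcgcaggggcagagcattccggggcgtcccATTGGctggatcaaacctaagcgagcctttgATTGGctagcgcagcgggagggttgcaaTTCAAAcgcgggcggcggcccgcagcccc
Cdc20 (chr4:118437344-118437593, minus strand): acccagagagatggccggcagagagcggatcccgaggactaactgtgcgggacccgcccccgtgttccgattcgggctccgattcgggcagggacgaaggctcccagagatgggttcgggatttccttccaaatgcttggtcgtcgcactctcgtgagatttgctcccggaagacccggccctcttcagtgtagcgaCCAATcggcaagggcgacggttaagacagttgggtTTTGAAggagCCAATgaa
Top2a (chr11:99024190-99024439, minus strand): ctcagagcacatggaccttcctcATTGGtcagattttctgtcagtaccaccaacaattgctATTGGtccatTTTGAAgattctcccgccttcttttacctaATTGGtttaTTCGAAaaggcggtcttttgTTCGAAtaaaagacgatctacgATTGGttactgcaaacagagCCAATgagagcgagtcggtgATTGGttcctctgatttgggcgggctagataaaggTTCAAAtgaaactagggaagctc

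The 250 bases before the start of Mcm7, a subunit of the helicase, and of Cdk1, the kinase of mitotic entry, are shown for their E2F matches, which are in capitals.
Mcm7 (chr5:138171884-138172133, minus strand): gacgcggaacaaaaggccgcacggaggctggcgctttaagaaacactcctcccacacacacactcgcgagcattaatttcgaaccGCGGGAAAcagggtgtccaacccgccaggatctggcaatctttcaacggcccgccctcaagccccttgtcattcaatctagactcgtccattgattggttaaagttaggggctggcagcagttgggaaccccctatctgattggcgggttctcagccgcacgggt
Cdk1 (chr10:69352913-69353162, minus strand): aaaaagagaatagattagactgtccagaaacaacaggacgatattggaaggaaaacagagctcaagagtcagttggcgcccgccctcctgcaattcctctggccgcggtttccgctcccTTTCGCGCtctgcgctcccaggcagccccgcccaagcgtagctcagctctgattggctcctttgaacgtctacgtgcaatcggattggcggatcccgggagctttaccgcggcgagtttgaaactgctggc
Cdk1 was the single gene with matches of all 3 kinds among the G2/M genes, and Mcm7 the single such gene among the G1/S genes.

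On mm9, the build of the files, the 46 genes lie on 16 chromosomes. Exons of 12 genes overlap exons of another gene by at least 1 base in GENCODE M1, among them Gins2 with Gse1, Kif20a with Cdc23, Ccne2 with Ints8 and Ccna2 with Exosc9, each on the opposite strand. Stranded counting was not stated, so the levels of these genes may include reads of the partner. Mki67 (chr7:142881471-142908062, minus strand), Pcna (chr2:132074898-132079050, minus strand), Mcm3 (chr1:20793055-20810359, minus strand) and Cenpa (chr5:30969150-30977200, plus strand) had no such overlap.

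Some libraries stood apart from their labels or groups. Endothelial markers (10 genes, Cdh5, Pecam1, Kdr and others) summed to 20346 to 22699 FPKM in LSECs and 11915 to 19575 in Akt-liver ECs, 2175 to 4493 in RACVECs and 53.2 to 95.4 in MACs. Etv2 was at 301 to 860 FPKM in RACVECs and was listed at 0 in the library labelled Sox17-RACVEC 2, where Erg was at 387 FPKM against 0 and 4.49 in the other Sox17-RACVEC libraries. Erg was at 3.91, 13.8 and 0.9 FPKM in RACVECs 1 to 3 against 395 to 1002 in Akt-RACVECs, while Fli1 was at 178 to 257 FPKM in RACVECs. Akt1 did not separate every group labelled with Akt from those without. It was at 892, 559 and 656 FPKM in Akt-liver ECs, where libraries 2 and 3 lay within the 551 to 692 FPKM of MACs. In Sox17-RACVECs, whose labels name no Akt, it was at 884, 1323 and 916 FPKM, against 872 to 1280.5 in Akt-RACVECs and 607 to 694 in RACVECs. Sox17 was at 5.09, 40.1 and 200 FPKM in Sox17-RACVECs 1 to 3 and at 0 in every RACVEC library. Macrophage markers (9 of 10 found) summed to 12933 and 39182 FPKM in Akt-MACs 2 and 3, and to 982 in Akt-MAC 1. The summed FPKM of a library was between 1689486 and 2317294. No read numbers were at hand, and the depth of each library is therefore unknown.

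The level of the 46 genes was lowest in LSECs and highest in Akt-LECs. The mean log2(FPKM + 1) over the genes was 3.77 ± 0.91 (SD, n = 3) in LSECs, 4.68 ± 0.39 in Akt-MACs and 4.82 ± 0.62 in MACs. It was 6.00 ± 0.58 in Sox17-RACVECs, 6.08 ± 1.08 in Akt-liver ECs, 6.09 ± 0.73 in RACVECs, 6.37 ± 0.57 in Akt-RACVECs and 6.996 ± 0.44 in Akt-LECs (SD, n = 3 each). For each pair of neighbours in this order the library means overlapped, for example from 3.17 to 4.82 in LSECs and from 4.36 to 5.12 in Akt-MACs. The means of unconverted amniotic cells, with or without Akt, lay between those of LSECs and of the remaining cultures. The G1/S mean was above the G2/M mean in every library except Akt-LEC 2, where the G2/M mean was 0.72 above the G1/S mean. The G2/M mean was below the G1/S mean by 1.44 ± 0.65 in LSECs, by 0.98 ± 0.50 in MACs and by 0.41 ± 0.14 in RACVECs (SD, n = 3).

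**Figure D1:**
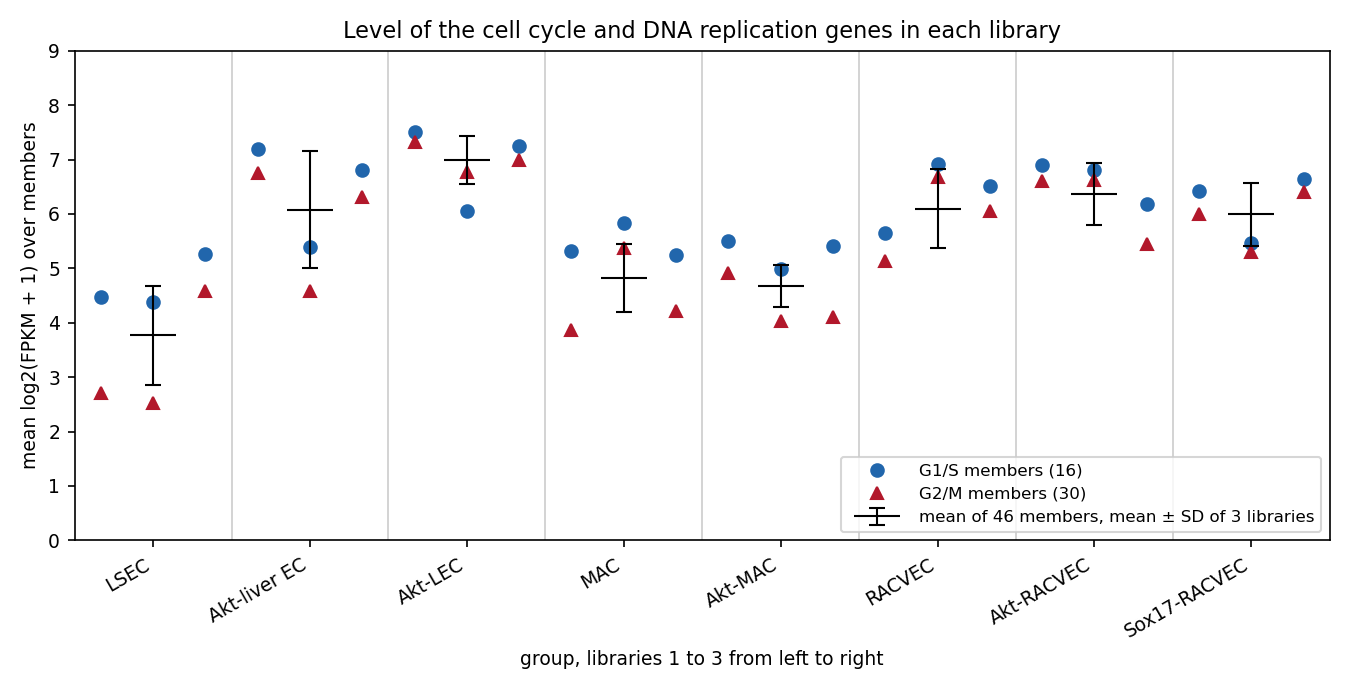
Mean log2(FPKM + 1) of the 16 G1/S genes (circles) and the 30 G2/M genes (triangles) in each of 24 libraries, with the mean ± SD over 3 libraries of the mean of all 46 genes (bars). LSECs 1 and 2 hold the lowest G2/M means, 2.70 and 2.52, and LSEC 3 reaches 4.58.

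Libraries of the same group differed widely. LSEC 3 was the highest LSEC library for 44 of the 46 genes, and 34.0% of all 14964 genes tested were highest there. Its G2/M genes lay a median of 2.07 above the other LSECs on the log2 scale and its G1/S genes 0.83. Hepatocyte markers summed to 16164 FPKM in LSEC 3 against 4172 and 2825 in LSECs 1 and 2. Mesenchymal markers summed to 1018 FPKM in LSEC 3 against 405 and 345. Macrophage markers were lowest in LSEC 3, at 14480 FPKM against 24139 and 21546 in LSECs 1 and 2. Lymphocyte markers were lowest there too, at 200 FPKM against 297 and 262. Whether any of these cells took part in the higher level of LSEC 3 was not tested. Akt-liver EC 2 was the lowest of its group for all 46 genes (median 1.84 below the others on the log2 scale), and for 32.3% of all genes. RACVEC 1 was the lowest of its group for all 46 (1.24 below), and for 39.1% of all genes. MAC 2 was the highest MAC library for 43 genes of the 46, and for 27.5% of all genes. A single member, Ccnb1 in LSEC 1, was listed at 0.

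**Figure D2:**
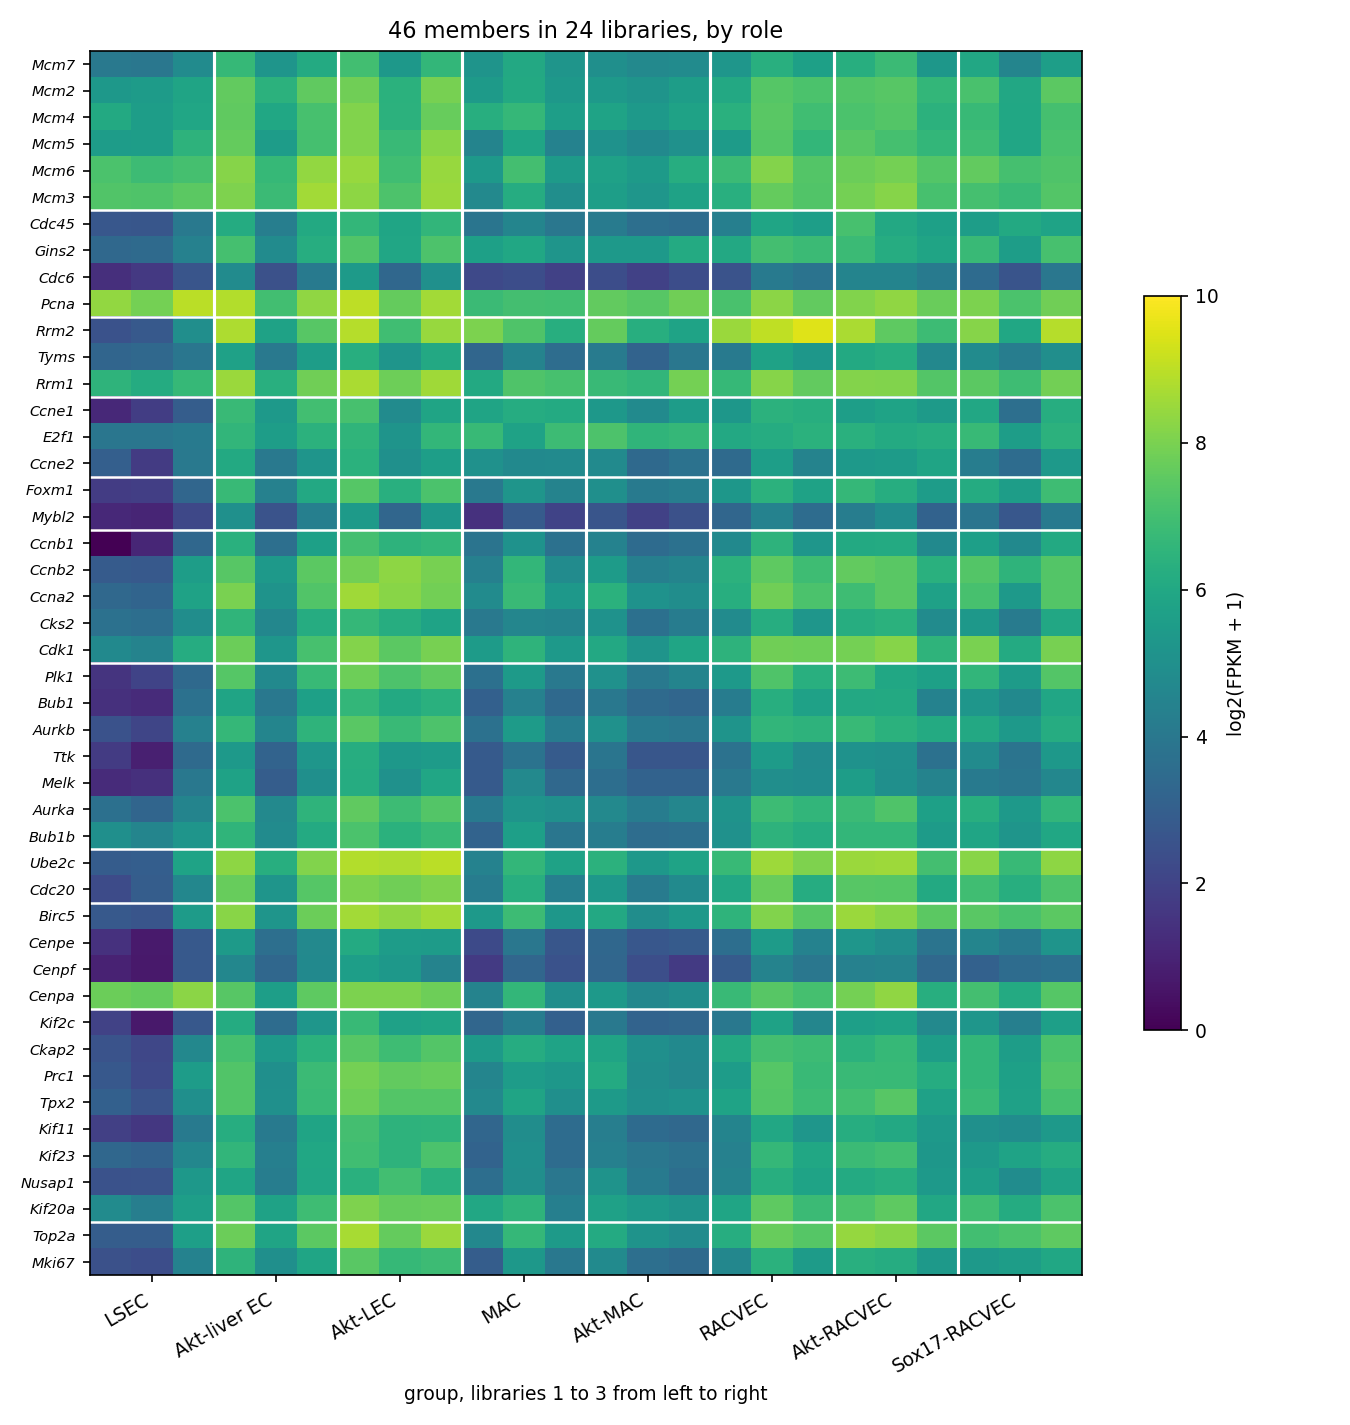
Colour gives log2(FPKM + 1) of the 46 genes (rows, ordered by role from the helicase at the top to Mki67 and Top2a at the bottom) in 24 libraries (columns, 3 per group). Pcna, Cenpa, Mcm3 and Mcm6 are bright in LSECs, where most rows are dark.

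The comparison of Akt-liver ECs with LSECs asked how liver endothelium differed after culture with Akt. Culture, the Akt vector and the way of isolation differed together between these groups, so that they cannot be told apart. In this comparison 37 of the 46 genes were called higher and 0 lower, where 14.1% of the 14964 genes tested were called higher and 12.9% lower. A call was an adjusted p below 0.05 (limma, Benjamini-Hochberg over all genes tested) and a change of more than 1 on the log2 scale. At an unadjusted p below 0.05 with the same change 40 were higher (16.4% of all genes) and 0 lower (14.8%). The median difference of the 46 genes was 2.43 on the log2 scale and 0.08 over all genes. Every Akt-liver EC library was above every LSEC library for 25 genes (27.7% of all genes), every one was below for 1 (24.9%), and the libraries overlapped for 20. Of the 30 G2/M genes 27 were called higher, with a median of 2.83, and of the 16 G1/S genes 10, with a median of 1.703.

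Most of the helicase was not called. Its 6 subunits, Mcm2 to Mcm7, form the ring that opens DNA at the fork, and 2 of 6 were called higher. Mcm7 was at 15.3, 14.5 and 27.2 FPKM in LSECs and at 103, 36.5 and 69.1 in Akt-liver ECs (log2 fold change 1.75 ± 0.49 SE, adjusted p = 0.0102). Mcm2 was at 38.8, 43.4 and 55.6 FPKM in LSECs and at 192, 85.8 and 185 in Akt-liver ECs (1.65 ± 0.46 SE, adjusted p = 0.00892). Every library of Akt-liver ECs was above every LSEC library for both genes. Mcm3 was at 153, 150 and 179 FPKM in LSECs and at 265, 112 and 387 in Akt-liver ECs, which overlapped (0.49 ± 0.47 SE, adjusted p = 0.45). Mcm6 was at 141, 116 and 131 FPKM in LSECs and at 293, 102 and 331 in Akt-liver ECs (0.73 ± 0.49 SE, adjusted p = 0.27). Mcm4 was at 65.5, 47.0 and 59.2 FPKM in LSECs and at 188, 61.3 and 135 in Akt-liver ECs (1.02 ± 0.45 SE, adjusted p = 0.0872). Mcm5 was at 45.1, 45.9 and 87.0 FPKM in LSECs and at 199, 45.0 and 130 in Akt-liver ECs (0.89 ± 0.56 SE, adjusted p = 0.237), and both genes overlapped. Akt-liver EC 2 was the library below the LSEC level in Mcm3 and Mcm6.

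Genes of the origin and fork rose except Pcna. Cdc45, which activates the helicase, was at 5.54, 5.32 and 15.7 FPKM in LSECs and at 69.7, 18.1 and 66.8 in Akt-liver ECs (log2 fold change 2.35 ± 0.52 SE, adjusted p = 0.00192). Gins2, a partner of Cdc45, and Cdc6, a loader of the helicase, were called higher too. Pcna, the sliding clamp of the polymerases, was at 332, 237 and 503 FPKM in LSECs and at 454, 124 and 319 in Akt-liver ECs (-0.38 ± 0.42 SE, adjusted p = 0.53). The groups overlapped, and without Akt-liver EC 2 the Pcna difference was 0.16. Pcna was the highest of the 46 genes in each LSEC library.

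Both subunits of ribonucleotide reductase, which makes the building blocks of DNA, were measured. Rrm2, the subunit whose supply follows S phase, was at 4.68, 5.86 and 29.9 FPKM in LSECs and at 440, 53.8 and 170 in Akt-liver ECs (log2 fold change 3.92 ± 0.87 SE, adjusted p = 0.00194). Rrm1 was at 89.7, 69.2 and 104 FPKM in LSECs and at 360, 78.2 and 229 in Akt-liver ECs, with overlap (1.10 ± 0.51 SE, adjusted p = 0.105). Tyms, the enzyme of thymidylate synthesis, was called higher (1.59 ± 0.53 SE, adjusted p = 0.0255).

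All 3 G1/S regulators were called higher. Ccne1, cyclin E1, was at 1.24, 2.57 and 6.65 FPKM in LSECs and at 109, 40.6 and 124 in Akt-liver ECs, the largest difference of the 46 genes (log2 fold change 4.40 ± 0.64 SE, adjusted p = 3.76e-05). E2f1, an activating E2F factor, was at 14.4, 14.3 and 16.5 FPKM in LSECs and at 95.6, 46.8 and 84.9 in Akt-liver ECs (2.20 ± 0.38 SE, adjusted p = 0.000237). For these genes every library of Akt-liver ECs was above every LSEC library. Ccne2, cyclin E2, overlapped between the groups (2.16 ± 0.65 SE, adjusted p = 0.0144).

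Both regulators of mitotic transcription were called higher, and so were most kinases of mitosis. Foxm1 was at 2.41, 2.62 and 8.76 FPKM in LSECs and at 105, 20.01 and 63.9 in Akt-liver ECs (log2 fold change 3.41 ± 0.56 SE, adjusted p = 0.000142). Mybl2, which encodes B-Myb, rose by 2.51 ± 0.67 SE (adjusted p = 0.00749). Plk1, a kinase of mitotic entry and the spindle, was at 1.82, 2.99 and 9.61 FPKM in LSECs and at 163, 25.5 and 105 in Akt-liver ECs (3.97 ± 0.68 SE, adjusted p = 0.000205). Of the 7 mitotic and checkpoint kinases 6 were called higher, Aurka, Aurkb, Bub1, Melk, Plk1 and Ttk. Bub1b, which encodes the checkpoint protein BubR1, was at 30.1, 22.7 and 35.8 FPKM in LSECs and at 92.8, 27.1 and 67.7 in Akt-liver ECs, with overlap (0.91 ± 0.55 SE, adjusted p = 0.211).

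Cyclins of S phase and mitosis followed. Ccnb1, cyclin B1, was at 0, 1.09 and 9.13 FPKM in LSECs and at 80.6, 11.7 and 50.5 in Akt-liver ECs (log2 fold change 3.77 ± 0.75 SE on the log2(FPKM + 1) scale, adjusted p = 0.000862). Its partner Cdk1 was at 25.7, 20.99 and 73.0 FPKM in LSECs and at 216, 36.7 and 134 in Akt-liver ECs, which overlapped (1.55 ± 0.66 SE, adjusted p = 0.0747). Ccna2, Ccnb2 and Cks2 were called higher with overlapping libraries. LSEC 3 was the LSEC library above Akt-liver EC 2 for Cdk1.

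Partners of the anaphase promoting complex, spindle proteins and the proliferation antigen were called in full. Ube2c was at 6.46, 6.85 and 55.5 FPKM in LSECs and at 318, 75.9 and 275 in Akt-liver ECs (log2 fold change 3.67 ± 0.76 SE, adjusted p = 0.0012). Cdc20 rose by 3.47 ± 0.70 SE (adjusted p = 0.000944). All 8 kinesins and spindle proteins were called higher, from Kif20a, a kinesin of cytokinesis (1.76 ± 0.55 SE), to Kif2c, a kinesin that shortens microtubules (3.17 ± 0.64 SE). Mki67, the Ki-67 antigen of cycling cells, was at 4.65, 4.09 and 20.4 FPKM in LSECs and at 90.9, 30.4 and 57.1 in Akt-liver ECs, every one above every LSEC library (2.70 ± 0.62 SE, adjusted p = 0.0026). Top2a was at 6.82, 6.67 and 49.4 FPKM in LSECs and at 215, 55.6 and 178 in Akt-liver ECs (3.17 ± 0.68 SE, adjusted p = 0.00146).

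Cenpa, the histone variant of centromeres, differed from its neighbours. It was at 214, 199 and 305 FPKM in LSECs and at 167, 48.3 and 180 in Akt-liver ECs, all below the LSECs (log2 fold change -1.04 ± 0.56 SE, adjusted p = 0.163), and it was the highest of the 30 G2/M genes in each LSEC library. Birc5, which encodes the passenger protein survivin, was at 5.84, 5.14 and 44.1 FPKM in LSECs and at 296, 36.4 and 213 in Akt-liver ECs (3.43 ± 0.73 SE, adjusted p = 0.00141). Cenpe and Cenpf, motor and scaffold of the kinetochore, were called higher with no overlap.

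**Figure D3:**
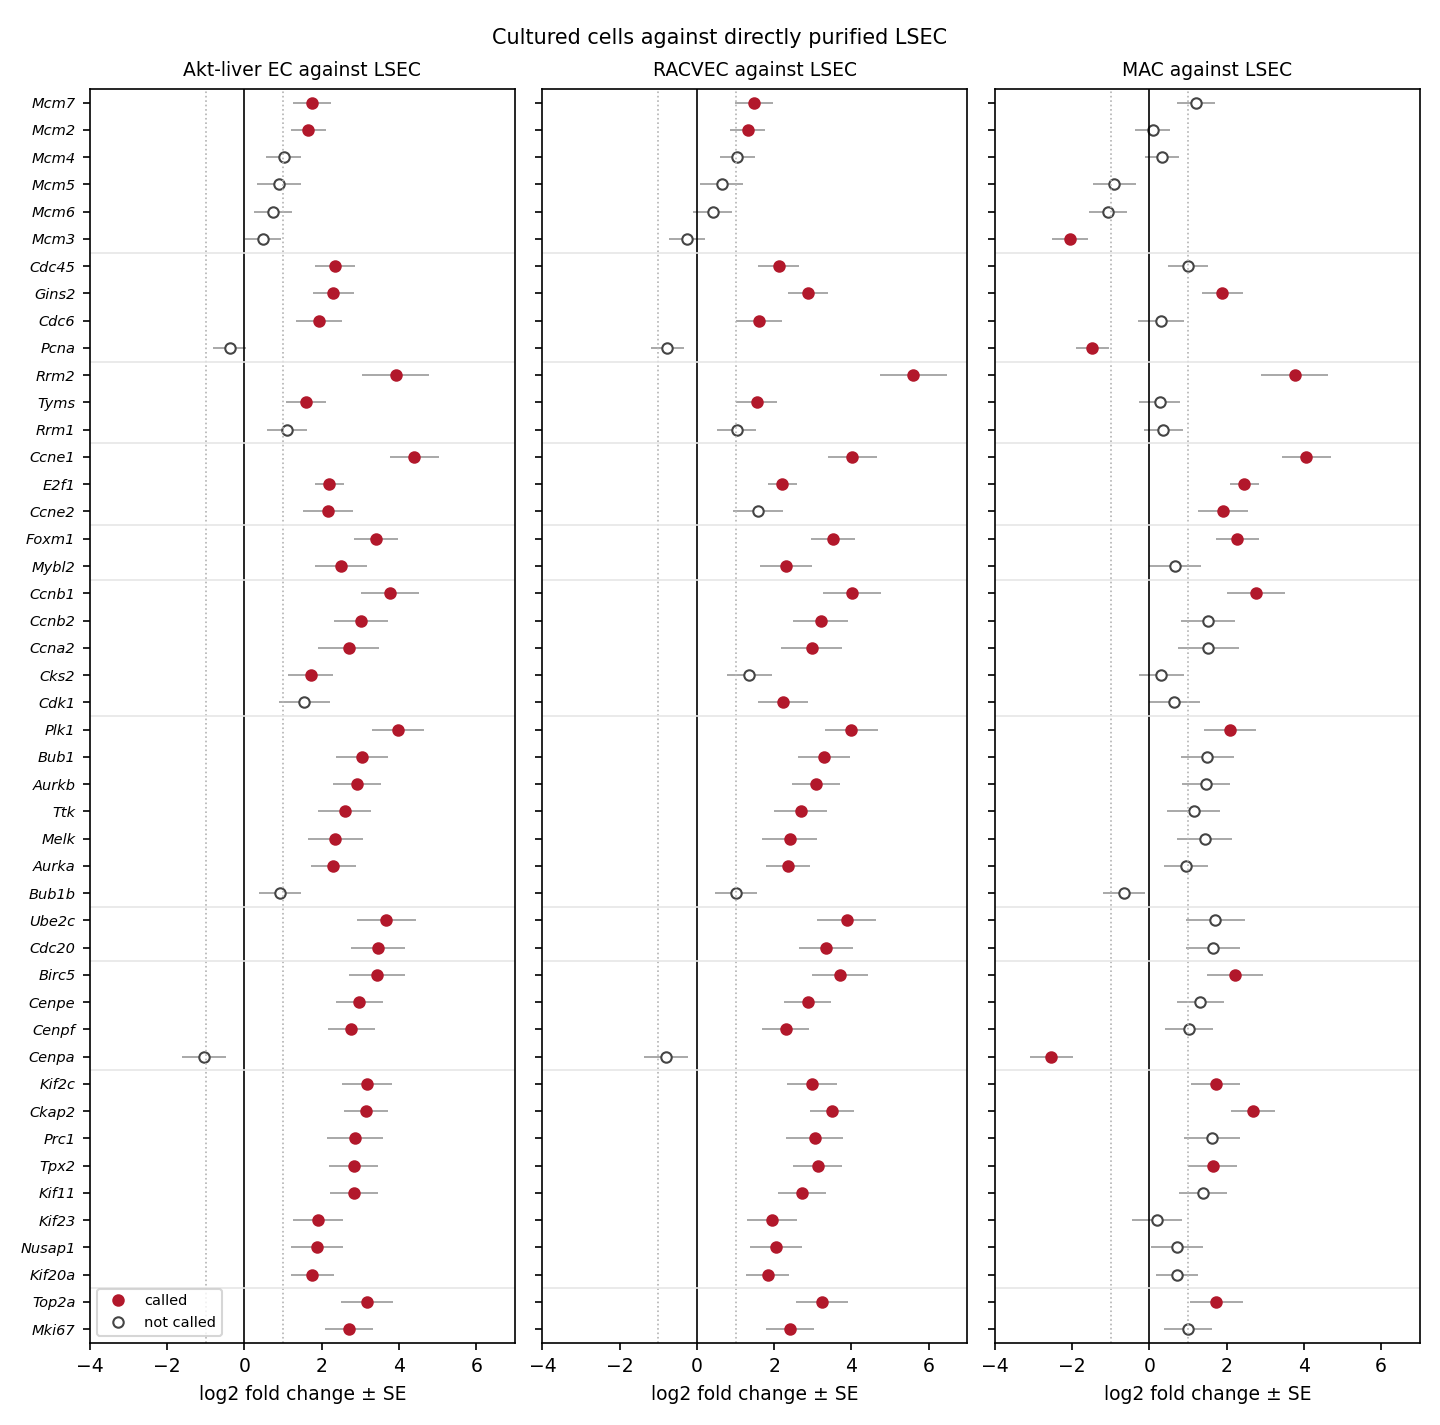
Log2 fold change ± SE of each gene (rows, by role) in Akt-liver ECs, RACVECs and MACs against the same 3 LSEC libraries, with called genes filled and dotted lines at -1 and 1. Cenpa, Pcna and Mcm3 are the 3 lowest genes in each panel and are called lower in MACs.

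LSEC libraries also held RNA of other liver cells. Macrophage markers (9 of 10 found, all 9 above 0) summed to 14480 to 24139 FPKM in LSECs and 0 to 1269 in Akt-liver ECs. Erythroid markers (5 of 6 found, Epb42 at 0 in all LSECs) summed to 10275 to 10897 FPKM in LSECs and 0.75 to 1.07 in Akt-liver ECs. Hepatocyte markers (10 of 10) summed to 2825 to 16164 and 32.1 to 69.7 FPKM, and lymphocyte markers (8 of 8) to 200 to 297 and 0 to 11.1 FPKM, in LSECs and Akt-liver ECs. Some libraries of cultured ECs held markers of other cells as well. Mesenchymal markers summed to 2636 FPKM in Akt-liver EC 1, against 177 and 439 in libraries 2 and 3. In Akt-LEC 1 they summed to 4170 FPKM, against 37.4 and 117. Macrophage markers summed to 1269 FPKM in Akt-liver EC 1 and 1751 in Akt-LEC 1. Akt-liver EC 1 was the highest of its group for 39 of the 46 genes (43.0% of all genes). Akt-LEC 1 was the highest for 35 (38.7%). The part of any of these cells in the levels of the 46 genes was not tested. The number called in Akt-liver ECs was 38 without LSEC 3 and 40 without Akt-liver EC 2. It was 16 where the variance came from these 2 groups alone, and 0 by an unequal-variance test on the FPKM of these groups with no adjustment.

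Other genes of the cycle were read from lists with 141 genes, of which 140 passed the filter. Of these, 66 were called higher and 3 lower in Akt-liver ECs against LSECs, with a median of 1.14. Among all genes 14.1% were called higher and 12.9% lower. Of 20 kinetochore genes 17 were called higher (largest Sgo2a, 3.09), of 19 genes of spindle, cytokinesis and centriole 15 (largest Kifc1, 3.54) and of 11 genes of homologous recombination 8 (largest Exo1, 2.68). Of 16 genes of origin recognition, licensing and firing 2 were called higher (Cdt1 and Orc1), and of 23 polymerase and fork genes 4 (largest Uhrf1, 2.87). The counts of these lists lay near the share of all genes. Of 11 genes of nucleotide synthesis 3 were called higher (largest Ctps, 3.69). Of 16 genes of condensin, cohesin and securin 7 were called higher (largest Ncaph, 2.84). Pttg1, securin, which holds separase until anaphase, was the 1 called lower, at 346, 320 and 405 FPKM in LSECs and at 125, 128 and 124 in Akt-liver ECs (log2 fold change -1.50, adjusted p = 0.000642). Of 17 E2F, Rb and DREAM genes 7 were called higher (largest E2f8, 3.29) and 2 lower, Lin52 (-1.45) and Rb1 (-1.23). Of 7 Cdk inhibitors 3 were called higher: Cdkn2a (5.86), Cdkn2b (4.82) and Cdkn1a (2.62), while Cdkn1c had the lowest difference (-2.41, adjusted p = 0.131). Cdkn2a, which encodes p16Ink4a and p19Arf, was at 12.4, 10.7 and 18.3 FPKM in LSECs and at 205, 1625 and 1771 in Akt-liver ECs. Every Akt-liver EC library was above every LSEC library for Cdkn2a.

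RACVECs were set against the same LSEC libraries, a comparison of converted cells with endothelium of the body. Here 36 of the 46 genes were called higher and 0 lower, where 14.7% of all genes were called higher and 15.2% lower. At an unadjusted p below 0.05 (limma) with a log2 change past 1, 39 were higher (16.9% of all genes) and 0 lower (16.8%). The median difference was 2.38 on the log2 scale, against 0.04 over all genes, and every RACVEC library was above every LSEC library for 33 genes (28.0% of all genes). Of the G2/M genes 27 of 30 were called and of the G1/S genes 9 of 16. Rrm2 was at 358, 527 and 725 FPKM in RACVECs, the largest difference (log2 fold change 5.60 ± 0.87 SE, adjusted p = 6.61e-05). Ccne1 was at 38.2, 86.1 and 75.5 FPKM in RACVECs (4.02 ± 0.64 SE, adjusted p = 8.46e-05), and Ccnb1 at 25.9, 86.3 and 37.3 (4.02 ± 0.75 SE, adjusted p = 0.000423). Cenpa (-0.80 ± 0.56 SE), Pcna (-0.76 ± 0.42 SE) and Mcm3 (-0.26 ± 0.47 SE) were the 3 genes with a negative difference, none of them called. Cdk1 was at 87.6, 228 and 219 FPKM, above every LSEC library, and was called here (2.23 ± 0.66 SE, adjusted p = 0.0123). With the variance of these 2 groups alone 29 genes were called, and 7 by the unequal-variance test on FPKM.

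Between MACs and LSECs genes of the list were called in both directions, but a smaller share was called lower than among all genes. Of the 46 genes 13 were called higher and 3 lower, where 16.2% of all genes were called higher and 16% lower, with a median of 1.26 against 0.06 over all genes. The libraries were all higher for 11 genes and all lower for 3, where 27.2% of all genes were all higher and 27.2% all lower. Both shares were smaller in the list than among all genes. At an unadjusted p below 0.05 (limma) with a log2 change past 1, 22 were higher (19.1% of all genes) and 4 lower (17.6%). Of the G1/S genes 5 of 16 were called higher and of the G2/M genes 8 of 30. Ccne1 was at 56.8, 71.3 and 67.5 FPKM in MACs (log2 fold change 4.06 ± 0.64 SE, adjusted p = 6.24e-05), Rrm2 at 257, 150 and 76.1 (3.76 ± 0.87 SE, adjusted p = 0.00214) and Ccnb1 at 13.4, 33.0 and 12.3 (2.76 ± 0.75 SE, adjusted p = 0.00718). All 3 G1/S regulators were called higher, E2f1 by 2.46 ± 0.38 SE. The Ccne2 call (log2 fold change 1.91) was lost and its sign turned (-0.55) with 1 transcript per gene in place of the sum.

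Genes lower in MACs were Cenpa, Mcm3 and Pcna. Cenpa was at 21.4, 96.8 and 29.8 FPKM in MACs (log2 fold change -2.54 ± 0.56 SE, adjusted p = 0.00162). Mcm3 was at 24.9, 73.0 and 29.8 FPKM (-2.05 ± 0.47 SE, adjusted p = 0.00198), and Pcna at 112, 128 and 125 (-1.48 ± 0.42 SE, adjusted p = 0.0099). Each MAC library was below each LSEC library for these genes. Mki67 was at 6.75, 39.0 and 15.3 FPKM in MACs and was not called (1.01 ± 0.62 SE, adjusted p = 0.204). The counts moved with single libraries: without LSEC 3, 28 genes were called higher and 2 lower, without LSEC 1 or LSEC 2, 6 or 7 were called higher, and without MAC 2, 8 were called higher and 5 lower.

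**Figure D4:**
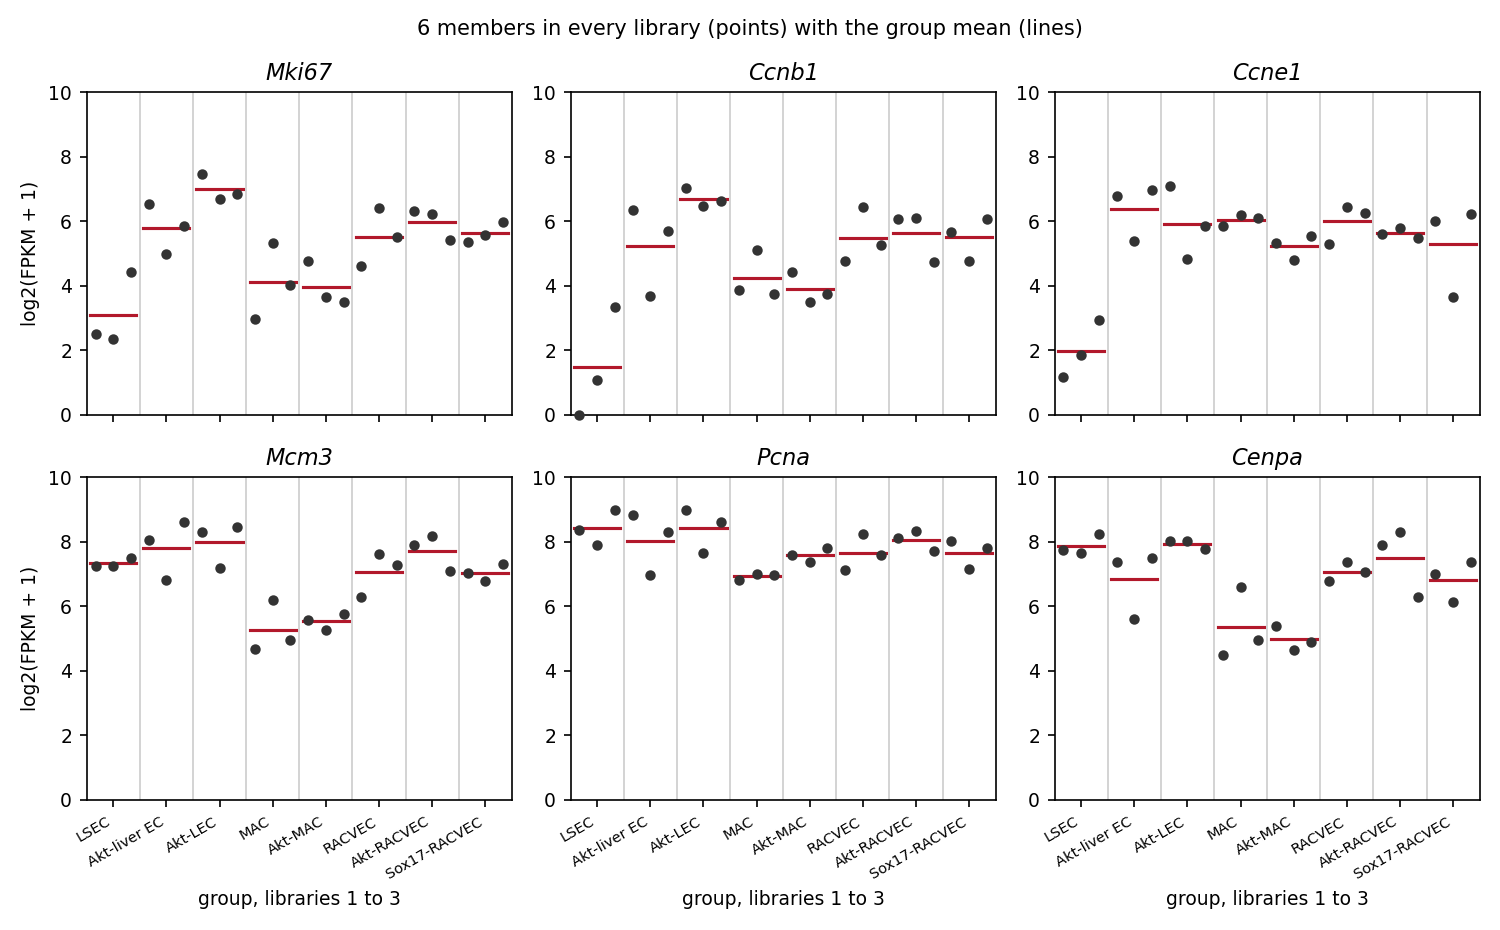
Log2(FPKM + 1) of 6 genes in 24 libraries (points) with group means (lines). The means of Mki67, Ccnb1 and Ccne1 are lowest in LSECs, while Mcm3, Pcna and Cenpa are higher in every LSEC library than in every MAC library.

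RACVECs, labelled as transduced with 3 Ets factors and with Erg at no more than 13.8 FPKM, were compared with MACs. A single gene of the 46, Mcm3, was called higher and 0 lower, where 1.36% of all genes were called higher and 1.35% lower. Mcm3 was at 24.9, 73.0 and 29.8 FPKM in MACs and at 78.1, 196 and 156 in RACVECs, all above (log2 fold change 1.79 ± 0.47 SE, adjusted p = 0.0438). The estimates were positive for 43 genes with a median of 1.40, against 0 over all genes. At an unadjusted p below 0.05 and a log2 change above 1, 27 genes were higher and 0 lower, where 5.45% of all genes were higher and 7.15% lower. Every RACVEC library was above every MAC library for 10 genes (11.4% of all genes), among them Mcm3, Cenpa, Cdc6, Foxm1 and Ube2c. Ube2c had the largest estimate, at 20.7, 97.4 and 52.9 FPKM in MACs and 106, 368 and 270 in RACVECs (2.18 ± 0.76 SE, adjusted p = 0.128). Mki67 was at 23.6, 83.0 and 44.0 FPKM in RACVECs, which overlapped with MAC 2 (1.40 ± 0.62 SE, adjusted p = 0.22).

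The 3 genes with a negative estimate were the G1/S regulators. Ccne2 (-0.34 ± 0.65 SE), E2f1 (-0.24 ± 0.38 SE) and Ccne1 (-0.04 ± 0.64 SE) were not called, with adjusted p of 0.794 or more. E2f1 was at 105, 54.0 and 116 FPKM in MACs and at 65.5, 72.5 and 82.8 in RACVECs, so that the groups overlapped. The Mcm3 call was lost in 4 of the 6 fits that left out a library (MAC 1, MAC 3, RACVEC 2 or RACVEC 3), and 4 genes were called without MAC 2.

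Cultured ECs of both organs, averaged with equal weight, gave another reference. MACs were lower in 33 of the 46 genes and higher in 0, where 7.3% of all genes were called lower and 7.51% higher. At an unadjusted p below 0.05 (limma) with a log2 change past 1, 38 were lower (9.75% of all genes) and 0 higher (11.7%). The median was -1.90 on the log2 scale, against -0.03 over all genes. Every MAC library was below every library of cultured ECs for 5 genes (Cdc6, Cenpf, Cks2, Mcm2 and Mcm3), where 10.1% of all genes were. Mcm3 had the largest difference, with cultured ECs between 112 and 387 FPKM (log2 fold change -2.62 ± 0.40 SE, adjusted p = 0.000306). Ube2c (-2.61 ± 0.66 SE) and Plk1 (-2.50 ± 0.59 SE) followed, and Plk1 was at 11.9, 42.5 and 15.6 FPKM in MACs against 25.5 to 219 in cultured ECs. Of the G2/M genes 25 of 30 were called lower and of the G1/S genes 8 of 16. Ccne1 (-0.10 ± 0.55 SE), Ccne2 (-0.54 ± 0.56 SE) and E2f1 (0.31 ± 0.33 SE) were not called.

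The count of lower genes in MACs was 6 without MAC 1, 16 without MAC 3 and 6 with the variance of the compared groups alone. Since cultured ECs carry Akt, Akt-MACs were set in place of MACs after the data had been seen, and 39 genes were then called lower and 0 higher, where 7.12% of all genes were called lower and 13.0% higher. The macrophage marker sums of Akt-MACs, 982 to 39182 FPKM against 0.79 to 14.7 in MACs, moved with this substitution, and their part in the count was not tested. In the other lists, with MACs against cultured ECs, 63 of 140 genes were called lower, where 7.3% of all genes were. Called higher were 2, Rbl2 (p130, log2 fold change 1.19) and Cdkn2b (2.34), where 7.51% of all genes were. The largest called decreases were Cep55, a protein of abscission (-3.20), and E2f7, a repressing E2F factor (-2.68).

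RACVECs against cultured ECs gave 0 calls among the 46 genes in either direction, where 0.621% of all genes were called higher and 1.26% lower. The counts were also 0 at an unadjusted p below 0.05 (limma) with a log2 change past 1. By that measure 4.57% of all genes were higher and 5.43% lower. The median was -0.48, and 42 estimates were negative. Rrm2 was the largest positive estimate (log2 fold change 1.29 ± 0.75 SE). The estimates ran from -0.92 to 1.29, and Rrm2 alone was past the log2 change of 1 that a call needed. The other genes could therefore not be called at any standard error, and the 0 does not speak to smaller differences. The standard errors ran from 0.33 to 0.75 on the log2 scale. With Akt-RACVECs in place of RACVECs 0 genes were called in either direction, where 0.0802% of all genes were called higher and 0.368% lower, and the median was -0.18.

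**Figure D5:**
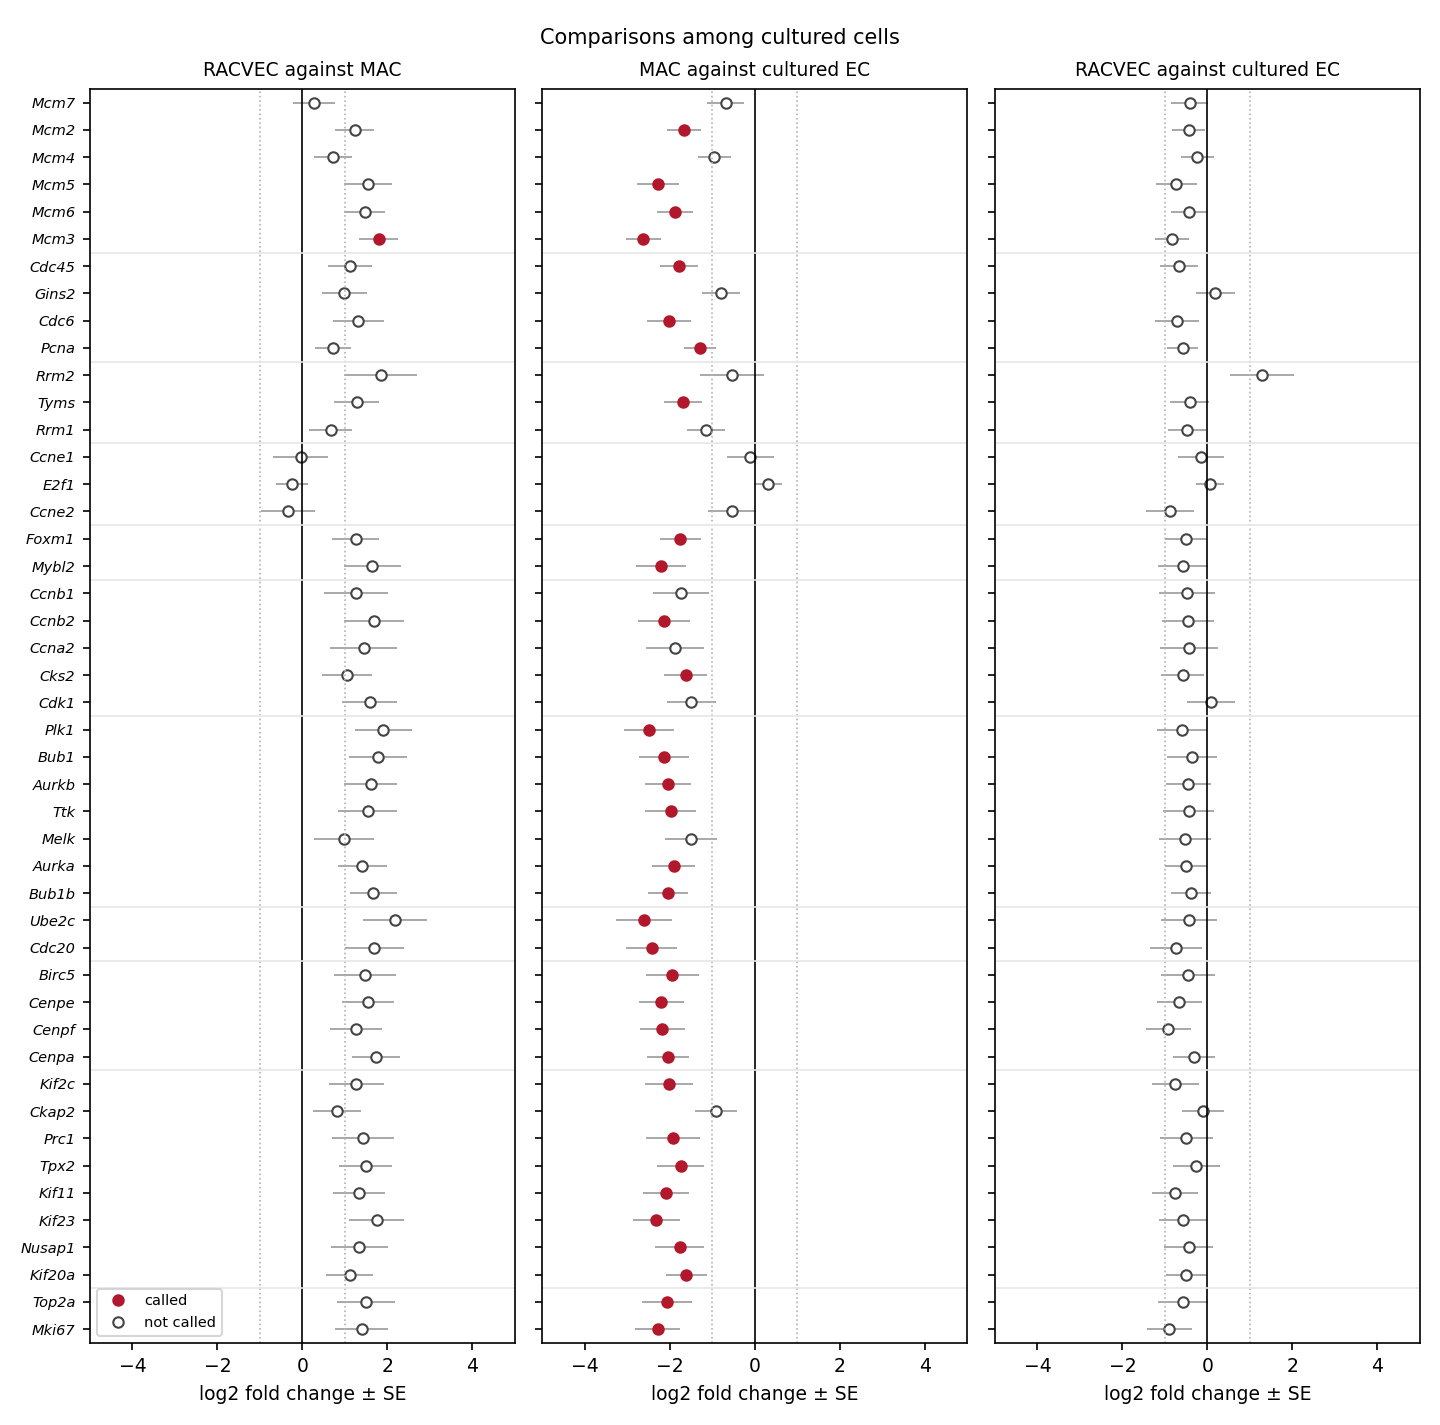
Log2 fold change ± SE of each gene in RACVECs against MACs, MACs against cultured ECs and RACVECs against cultured ECs, with called genes filled and dotted lines at -1 and 1. Nearly all estimates are positive in the first panel and negative in the second, while Ccne1, E2f1 and Ccne2 lie near 0 in both.

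Akt and Sox17 were each added to cells of the amniotic lineage. In Akt-MACs against MACs 0 genes of the 46 were called in either direction, where 2.59% of all genes were called higher and 0.214% lower. The median was -0.12, against 0.09 over all genes, and 14 estimates were positive. Macrophage markers summed to 982 to 39182 FPKM in Akt-MACs and to 0.79 to 14.7 in MACs. Their part in this comparison, and in the difference of Akt effects given below, was not tested. In Akt-RACVECs against RACVECs 0 of the 46 genes were called, where 0.221% of all genes were called higher and 0.0401% lower. The median was 0.33, against 0 over all genes, and 39 estimates were positive. In Sox17-RACVECs against RACVECs 0 were called, where 0.0% were called higher and 0.00668% lower. The median was -0.07, against -0.02 over all genes, and 17 estimates were positive. Standard errors of the 46 genes ran from 0.38 to 0.87 on the log2 scale, so that 0 calls do not speak to smaller differences. In each of these comparisons 0 of the 46 genes passed an unadjusted p below 0.05 with a log2 change past 1 (limma), and 0 were called by the unequal-variance test on FPKM. By the unadjusted p, 7.54% of all genes were higher and 2.19% lower in Akt-MACs against MACs, 4.79% higher and 5.24% lower in Akt-RACVECs against RACVECs, and 1.32% higher and 3.38% lower in Sox17-RACVECs against RACVECs. Every Akt-MAC library was above every MAC library for 1 gene of the 46 and below for 2, where 10.7% of all genes were above and 4.19% below. The libraries overlapped for all 46 genes in Akt-RACVECs against RACVECs, where 10.6% of all genes were above and 9.15% below, and in Sox17-RACVECs against RACVECs, where 4.05% were above and 6.55% below. Mki67 was at 26.3, 11.6 and 10.1 FPKM in Akt-MACs, at 78.5, 72.9 and 41.8 in Akt-RACVECs and at 40.0, 46.1 and 61.8 in Sox17-RACVECs. Its differences from the cells without the added gene were -0.13, 0.48 and 0.13 on the log2 scale (SE 0.62 each). Rrm2 had the lowest estimate in both converted groups, at 425, 185 and 113 FPKM in Akt-RACVECs (-1.31 ± 0.87 SE, adjusted p = 0.485) and at 287, 60.8 and 476 in Sox17-RACVECs (-1.34 ± 0.87 SE, adjusted p = 0.854). The difference of the Akt effects in RACVECs and MACs was called for 0 genes, where 0.00668% of all genes were called higher and 0.0936% lower. Its median was 0.44, against -0.12 over all genes. Ccne2 had the largest estimate (1.92 ± 0.91 SE, unadjusted p = 0.0496 by limma), and the lowest adjusted p of the 46 genes was 0.413.

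Akt-LECs were compared with Akt-liver ECs, both cultured with Akt. Here 0 of the 46 genes were called, where 0.0% of all genes were called higher and 0.0134% lower, and 1, Foxm1 (log2 fold change 1.24 ± 0.56 SE), was higher at an unadjusted p below 0.05 (limma), where 1.12% of all genes were higher and 1.67% lower. The unequal-variance test on FPKM called 1. The estimates were positive for 44 genes, with a median of 1.10 against -0.03 over all genes, and every Akt-LEC library was above every Akt-liver EC library for 15 genes (2.75% of all genes) and below for 0 (4.41%). Mki67 was at 175, 102 and 115 FPKM in Akt-LECs, above Akt-liver ECs. Akt-liver EC 2 set much of the spread, and without it the median was 0.44.

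The 46 genes moved together across libraries to different degrees. Pearson's r between a gene and the mean of the remaining 45, on log2(FPKM + 1) over 24 libraries that share groups and normalization, had a median of 0.95 and was above 0.9 for 33 genes. It was highest for Bub1 (0.99) and lowest for Pcna (0.42), E2f1 (0.47), Cenpa (0.48) and Mcm3 (0.62). Over the 21 libraries without LSECs it was 0.83 for Pcna, 0.95 for Cenpa and 0.92 for Mcm3, whereas it was -0.12 for E2f1 and 0.48 for Ccne1. Among genes outside the list, those with the highest r to the mean of the 46 included Dlgap5, Nek2, Ercc6l, Ndc80, Sgo1, Cdca2, Shcbp1, Cenpi and Ect2 (0.98 to 0.99 over 24 libraries).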

How the data were processed

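RNA of 24 libraries was sequenced as paired 51 bp reads. The authors aligned reads to mm9 with TopHat and deposited FPKM per RefSeq transcript from Cufflinks, with upper-quartile normalization and bias correction. Versions are not given in the sources used here. Counts of reads are not used here, so depth and counting error are unknown, and a value listed at 0 gives no upper limit. Such values hide how well low genes were sampled.

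The FPKM of 27583 transcripts were summed to 22282 genes. Groups followed the labels. In 1 limma fit over 8 groups (limma 3.58.1, R 4.3.3, trend, two-sided), log2(FPKM + 1) was compared for the 14964 genes averaging 1 FPKM or more over all libraries, with Benjamini-Hochberg adjustment over all of them. A call needed an adjusted p below 0.05 and a log2 change past 1. Fold changes on this scale understate the change of low genes. The fit was tested on simulated data. Tables and figures were made with Python 3.11.15, pandas 2.3.3, numpy 2.4.6 and matplotlib 3.10.9.

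The 46 genes and all lists were chosen with earlier results of these data known. Named genes were Mki67, Top2a, Cdk1, Mcm2, Pcna and E2f1, the largest and smallest change of each role and the genes not called in Akt-liver ECs against LSECs, and those called elsewhere (all if up to 5, otherwise the 3 largest in a direction). From the other lists, genes called against most of their list and the largest in each direction were named, with genes from the 10 outside the 46 most correlated with their mean, of which 1 is not reported here. Tyms with its statistics, Cdkn1a, Cdkn2b and Orc1 fall outside that rule and were chosen after their values were seen. Alternatives were other pseudocounts, filters and scalings, 1 transcript per gene, the compared groups alone, a replicate block, the unequal-variance criterion of the study and leaving out each library. The use of Akt-MACs and Akt-RACVECs against cultured ECs was added after seeing the data.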

Additional observations from a re-analysis of the deposited data

How the results depend on the processing

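The replicate numbers did not pair the libraries throughout, since in no comparison were all 3 correlations of same-numbered libraries above 0.1. The highest were 0.57 and 0.37, for libraries 1 and 2 of Akt-LECs with Akt-liver ECs, with -0.05 for library 3. Whether these libraries shared a preparation was not tested. With the replicate block in the fit over all groups, the calls of higher genes against LSECs were 37 for Akt-liver ECs, 11 for MACs and 36 for RACVECs, with 33 lower in MACs against cultured ECs and 0 in RACVECs against MACs. With only the compared groups, the counts were 16, 6 and 29 against LSECs, 6 lower in MACs against cultured ECs and 0 in RACVECs against MACs, and with the replicate block as well 11, 2, 10, 0 and 0. The unequal-variance criterion of the study called 0, 4 and 7 higher against LSECs and 1 in Akt-LECs against Akt-liver ECs. A pseudocount of 10 gave 6 higher in MACs against LSECs and 0 in RACVECs against MACs, and moved the median of RACVECs against LSECs to 1.55. Shares of all genes are not given here for these alternatives, so the counts show only how far the calls moved.

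Leaving out 1 library gave 27 to 40 genes higher in Akt-liver ECs, 27 to 38 in RACVECs and 6 to 28 higher and 2 to 5 lower in MACs, all against LSECs, 0 to 4 higher in RACVECs against MACs and 6 to 39 lower in MACs against cultured ECs. Pcna in Akt-liver ECs against LSECs ranged from -0.78 to 0.16, turning positive without Akt-liver EC 2. Ccne2 in MACs against LSECs was -0.55 with the transcript of the highest mean. Apart from the fewer samples, the cause was not tested. Depth is unknown, so no limit from it can be given.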
